A study of Macaca fascicularis with 10 samples.

Results

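The 6 transcripts described here are ENSMFAG00000042109, ENSMFAG00000002014, ENSMFAG00000042043, ENSMFAG00000044692, ENSMFAG00000000818 and ENSMFAG00000041228, 6 of the 24148 genes measured by RNA-seq in the dorsal part of the macaque spinal cord. They were chosen by their measured side difference: in an earlier analysis of the same libraries each was higher on the injured side in all 5 animals, at a low to moderate level. The samples came from 5 cynomolgus macaques (Macaca fascicularis), all of which had SNL surgery, that is, ligation of a spinal nerve on 1 side to model neuropathic pain. Each animal gave an ipsilateral (right, injured side) and a contralateral (left) sample, so there were 10 libraries in 2 groups of 5. The labels do not state the nerve level, the time after surgery or the animals' age and sex, and animals without the operation were not analysed here. The injured side was the right one in all 5 animals, so injury and right against left cannot be told apart, and the comparison is between sides and not before and after surgery.

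The dorsal horn of the spinal cord receives the sensory fibres that carry touch, temperature and pain. When a spinal nerve is ligated, the fibres on that side are damaged, and neurons, microglia and astrocytes of the dorsal horn on that side are known from rodent models to change their gene expression. The opposite side of the same animal serves as an internal control, although it belongs to an operated animal. The deposited table names genes by Ensembl identifier alone and 0 of the 24148 identifiers matched a symbol in the reference table, so no role is given for any of the 6 and no sequence is shown. Markers of neurons, glia, blood and neighbouring tissue could not be looked up for the same reason.

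The libraries held 26539772 to 34997645 expected counts, which are estimates of the reads belonging to each gene, with ambiguous reads shared out among genes. Levels are given as CPM, counts relative to the library size after TMM scaling, and as the deposited TPM, which is also corrected for transcript length. All 6 transcripts passed the filter on low counts, with at least 10 counts in each of the 10 libraries, and their counts ran from 40 to 2369. All of their counts were whole within 0.005. The share of whole counts over all genes is not given here, so nothing is read from this about reads shared with other genes. Animal 3 stood apart from the other animals in scaling. Its TMM factor was 0.83 for the contralateral and 0.798 for the ipsilateral library, while the other libraries had 1.03 to 1.10. The 10 most counted genes took 23.8% and 23.9% of its counts, against 11.3% to 16.7% in the other libraries. Whether this lies behind the factors was not tested. The order of the animals is given on both scales, and spreads between animals are in TMM-scaled CPM unless TPM is named.

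Because the side difference chose the 6, it is given as a description without a test. In edgeR's quasi-likelihood fit with the animal as a block, all 6 were called higher on the ipsilateral side at an adjusted p under 0.05, a rule that called 2.25% of the 16143 tested genes higher and 2.75% in either direction. Each was higher in 5 of 5 animals, as were 8.13% of tested genes. The choice of the 6 fixed or favoured both of these counts, so nothing is read from them beside the shares. Between 2 and 45 CPM the table held 9261 tested genes, of which 250 were called higher and higher in 5 of 5 animals. The 6 held places 2 to 7 among these by p and places 8 to 13 among all tested genes. By size of the change they held places 5, 6, 19, 32, 41 and 80 of the 250. The gene ahead of them by p in this range, at 38.8 CPM and a log2 difference of 1.00, is not among the 6, and the exact rule of the earlier choice is not known. Just outside, the gene at place 14 had 27.3 CPM and a log2 difference of 0.50 ± 0.06 (SE), against 38.7 CPM and 0.51 ± 0.06 for ENSMFAG00000041228 at place 13. The gene at place 7 lay outside the range, at 111 CPM, and was lower on the ipsilateral side (log2 difference -0.45 ± 0.04, SE). In bulk tissue more cells of a type and more RNA per cell cannot be told apart.

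The 6 ranged from 3.75 to 38.7 CPM on average. At a similar p, a gene with low counts generally needs a larger difference, so nothing is read from the fold differences in relation to the counts. ENSMFAG00000044692 and ENSMFAG00000002014, the least counted of the 6, were 2.33-fold and 2.32-fold higher on the ipsilateral side, and ENSMFAG00000041228, the most counted, was 1.42-fold higher. The other 3 lay between, at 1.77-fold for ENSMFAG00000000818, 1.64-fold for ENSMFAG00000042043 and 1.58-fold for ENSMFAG00000042109. The median log2 difference of the 6 was 0.77, against 0.43 for the 250 genes (quartiles 0.34 and 0.55) and 0.00 for all tested genes. The 6 stood near the top of the 250 by p, which favours a large difference, so nothing is read from this gap.

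**Figure D1:**
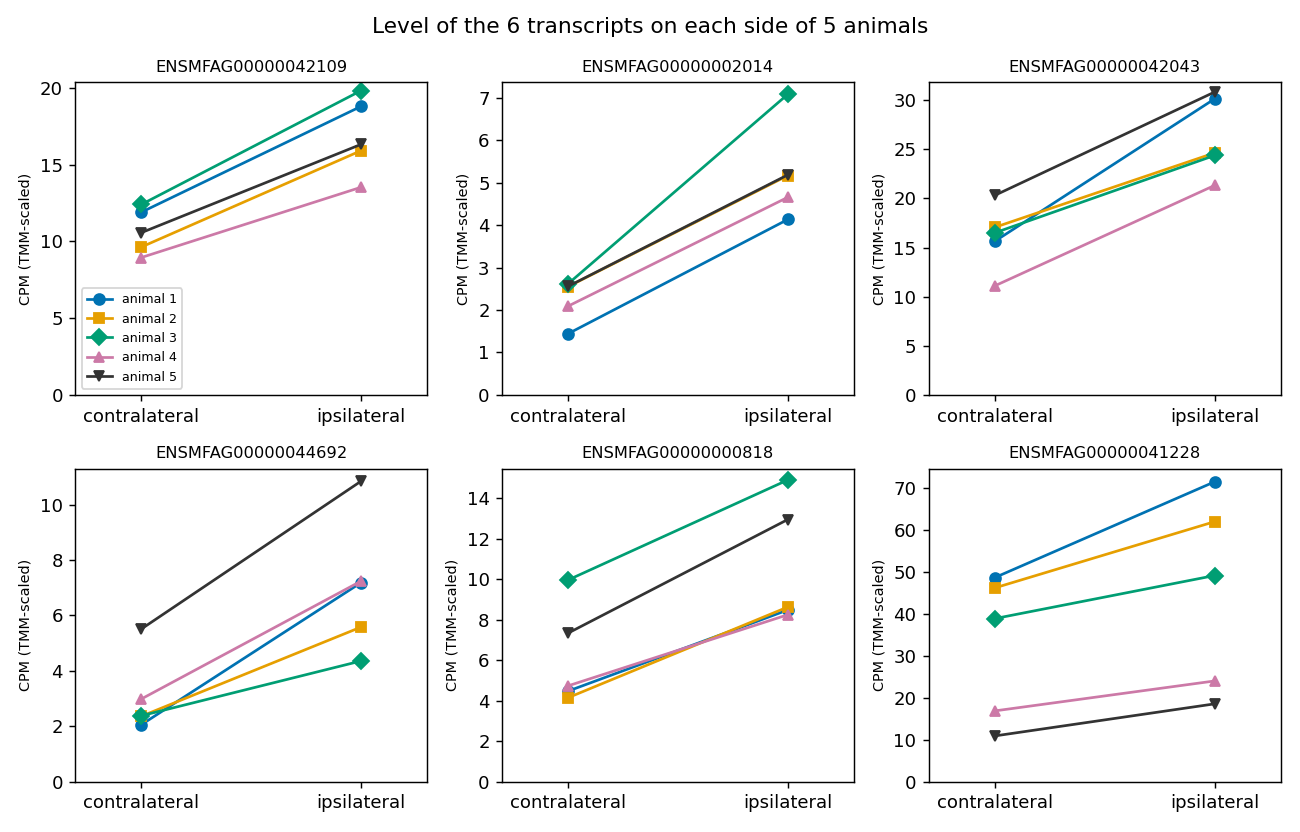
Level in TMM-scaled CPM (y axis, linear, from 0, a separate scale for each panel) of each of the 6 transcripts on the contralateral and ipsilateral side; each line joins both sides of 1 animal. All 30 lines slope upward, and the lines of ENSMFAG00000041228 are spread widest, from 10.9 to 48.7 CPM on the contralateral side.

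ENSMFAG00000002014 was the least counted member. Its contralateral libraries held 1.44, 2.55, 2.62, 2.09 and 2.56 CPM in animals 1 to 5. On the ipsilateral side they were 4.13, 5.17, 7.08, 4.66 and 5.18 CPM in the same order. Every ipsilateral library lay above every contralateral one, animal 1 was the lowest on both sides and animal 3 the highest. The lowest library, the contralateral one of animal 1, rested on 40 counts, with a 95% exact Poisson interval of 28.6 to 54.5 that covers counting error only. The means were 2.25 ± 0.50 and 5.24 ± 1.11 CPM (SD, n = 5), with a fitted log2 difference of 1.21 ± 0.12 (SE). The ipsilateral level was 2.02-fold to 2.86-fold the contralateral one, smallest in animal 2 and largest in animal 1.

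ENSMFAG00000044692 was similar in size of change and less even among the animals. Its contralateral libraries held 2.06, 2.36, 2.38, 2.98 and 5.51 CPM in animals 1 to 5. The ipsilateral values were 7.18, 5.58, 4.35, 7.24 and 10.8 CPM. Animal 5 was the highest on both sides, and its contralateral library lay above the ipsilateral library of animal 3, so the groups overlapped. The means were 3.06 ± 1.41 and 7.04 ± 2.44 CPM (SD, n = 5), with a fitted log2 difference of 1.22 ± 0.13 (SE). The fold difference ran from 1.83 in animal 3, with a counting interval of 1.34 to 2.52, to 3.49 in animal 1, with 2.61 to 4.75. On the log2 scale the spread between the animals' differences was 0.35 (SD, n = 5), the widest of the 6.

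ENSMFAG00000000818 had 4.47, 4.15, 9.96, 4.73 and 7.34 CPM in the contralateral and 8.48, 8.62, 14.9, 8.24 and 12.9 CPM in the ipsilateral libraries of animals 1 to 5. Animals 3 and 5 were high on both sides, and 3 of the 5 ipsilateral libraries lay below the contralateral library of animal 3. The means were 6.13 ± 2.49 and 10.6 ± 3.08 CPM (SD, n = 5) and the fitted log2 difference was 0.82 ± 0.09 (SE). In TPM the groups did not overlap, with 31.9 to 55.8 on the contralateral and 58.9 to 98.0 on the ipsilateral side. Whether the sides overlapped thus depended on the scale, and on both scales each animal was higher on its own ipsilateral side.

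In TMM-scaled CPM, ENSMFAG00000042109 had the smallest spread of side differences among the 6. Its contralateral libraries held 11.9, 9.63, 12.4, 8.95 and 10.6 CPM in animals 1 to 5 and its ipsilateral libraries 18.8, 15.9, 19.8, 13.5 and 16.3 CPM. The groups did not overlap, and in TMM-scaled CPM the animals kept the same order on both sides. In TPM they did not, with animal 5 highest on the contralateral side (14.5) and animal 2 on the ipsilateral side (21.6). The means were 10.7 ± 1.46 and 16.9 ± 2.49 CPM (SD, n = 5), with a fitted log2 difference of 0.66 ± 0.07 (SE). Its CPM fold difference lay between 1.51 and 1.65 in every animal, a range narrower than the counting interval of animal 4 alone, 1.29 to 1.77. In TPM the fold difference ran from 1.36 in animal 4 to 1.78 in animal 2. The spread of the log2 CPM differences between animals was 0.05 (SD, n = 5), against a median of 0.19 for the 250 genes. A small spread gives a small p, so the choice favours it.

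ENSMFAG00000042043 had 15.7, 17.1, 16.5, 11.1 and 20.3 CPM in the contralateral and 30.1, 24.6, 24.4, 21.3 and 30.8 CPM in the ipsilateral libraries of animals 1 to 5. Every ipsilateral library lay above every contralateral one in CPM, the closest being 21.3 in animal 4 and 20.3 in animal 5. In TPM the groups overlapped, since the ipsilateral libraries of animals 3 (19.9) and 4 (27.6) lay below the contralateral library of animal 5 (31.0). The means were 16.1 ± 3.32 and 26.3 ± 4.08 CPM (SD, n = 5) and the fitted log2 difference was 0.71 ± 0.07 (SE). In CPM the difference was 1.93-fold in animal 1 and 1.92-fold in animal 4, and 1.44-fold, 1.48-fold and 1.52-fold in animals 2, 3 and 5. In TPM it was more evenly spread, at 1.89, 1.49, 1.38, 1.76 and 1.53 in animals 1 to 5.

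ENSMFAG00000041228 differed more between animals than between sides. The contralateral libraries held 48.7, 46.2, 38.9, 16.9 and 10.9 CPM in animals 1 to 5. The ipsilateral values were 71.5, 62.0, 49.1, 24.0 and 18.5 CPM. In TMM-scaled CPM the animals kept the same order on both sides, and the ipsilateral libraries of animals 4 and 5 lay below the contralateral libraries of the other 3. Means and SDs were therefore wide, at 32.3 ± 17.3 and 45.02 ± 23.2 CPM (SD, n = 5), while the fitted log2 difference within animals was 0.51 ± 0.06 (SE). The smallest fold difference of all 30 was in animal 3, at 1.26 with a counting interval of 1.16 to 1.37, and the largest of this transcript was 1.70, in animal 5, which had the lowest level.

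**Figure D2:**
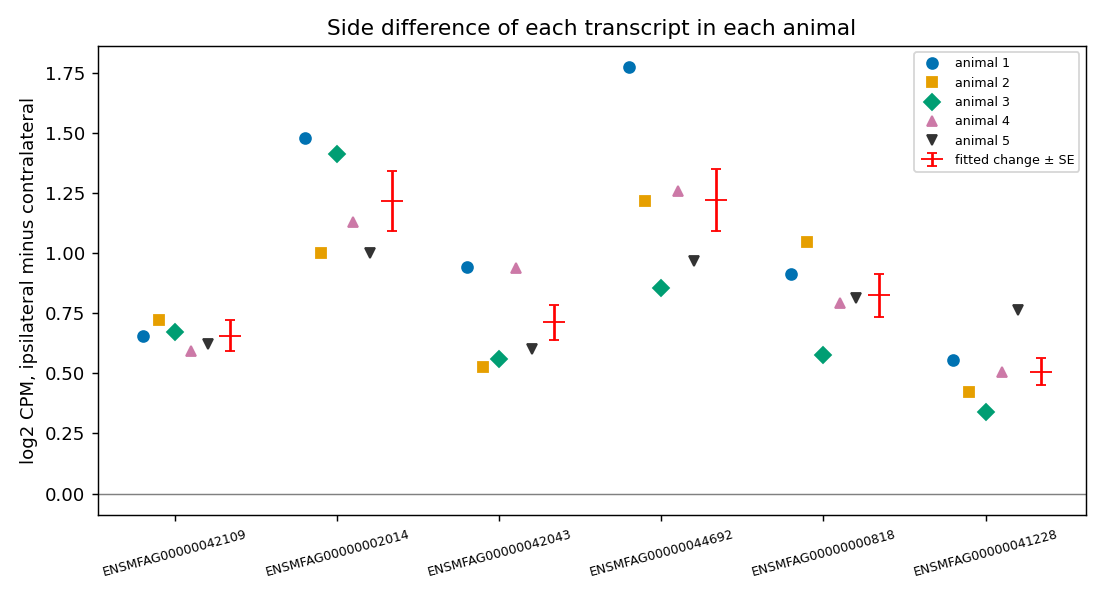
Side difference of each transcript in each animal, as log2 CPM on the ipsilateral minus the contralateral side (points), with the fitted log2 difference and its standard error in red. ENSMFAG00000042109 spans 0.59 to 0.72, and ENSMFAG00000044692 spans 0.86 to 1.77.

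By animal, the differences were as follows, for transcripts chosen to be higher in all 5. Animals 1 to 5 had median fold differences over the 6 of 1.91, 1.84, 1.55, 1.83 and 1.73. Animal 3 had the smallest difference for 3 transcripts (ENSMFAG00000044692, ENSMFAG00000000818 and ENSMFAG00000041228), and animal 1 had the largest for 3 (ENSMFAG00000002014, ENSMFAG00000042043 and ENSMFAG00000044692). Animal 5 had the largest difference of the 5 for ENSMFAG00000041228 and lay in the middle or next to the smallest for the others. All ipsilateral libraries lay above all contralateral ones in CPM for 3 of the 6, against 0.26% of tested genes, a count that the choice of the 6 favours.

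How far the side difference could be seen without pairing varied. Leaving the animal out of the fit moved the log2 differences little, to 0.48 for ENSMFAG00000041228 and 1.22 for ENSMFAG00000002014, and widened their standard errors. The standard error grew 8.49-fold for ENSMFAG00000041228, from 0.06 to 0.49, and 3.29-fold for ENSMFAG00000000818. For the other 4 it grew 1.80-fold to 2.59-fold, least for ENSMFAG00000002014.

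The difference between animals was not what the 6 were chosen for, and it was tested. The test is not fully free of the choice, because a small p for the side goes with a small residual spread, which both tests share. In edgeR's F test of the 4 animal terms, with side in the model, all 6 transcripts differed between the animals, a call made for 80.7% of tested genes, so the count of 6 is near the background. The adjusted p was 1.75e-10 for ENSMFAG00000041228, 1.16e-05 for ENSMFAG00000000818 and 0.000178 for ENSMFAG00000044692. It was 0.00112 for ENSMFAG00000042043, 0.00232 for ENSMFAG00000042109 and 0.0211 for ENSMFAG00000002014. The last was 0.159 without animal 1 and 0.141 without animal 3, so its call rests on those animals. That of ENSMFAG00000044692 was 0.111 without animal 5, and that of ENSMFAG00000042043 was 0.0507 without animal 4. The 2 libraries that stand for an animal are its 2 sides, so the test speaks of these 5 animals. On simulated data with dispersions set to the gene-by-gene estimates from these libraries, this test made more false calls than its threshold allows. Calls with an adjusted p not far under 0.05 are therefore weak.

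Over the mean of both sides, ENSMFAG00000041228 ran from 14.7 CPM in animal 5 to 60.1 CPM in animal 1, a 4.08-fold range (4.02-fold in TPM), 3.96 times its mean side difference on the log2 scale. The same ratio was 1.23 for ENSMFAG00000000818, 1.03 for ENSMFAG00000044692 and 0.98 for ENSMFAG00000042043. It was 0.78 for ENSMFAG00000042109 and 0.66 for ENSMFAG00000002014. A range over 5 animals and a mean difference are unlike measures. The SD of ENSMFAG00000041228 over the animals' log2 levels, 0.91, lay at percentile 89.1 of the 9261 genes between 2 and 45 CPM, whose median was 0.37. ENSMFAG00000044692 and ENSMFAG00000000818 lay at percentiles 65.2 and 62.3, with SDs of 0.49 and 0.47. On this TMM-scaled CPM scale the remaining 3 varied less than most of these genes, at 0.30 for ENSMFAG00000002014, 0.25 for ENSMFAG00000042043 and 0.21 for ENSMFAG00000042109 (percentile 22.4). ENSMFAG00000041228 was thus, on this scale, the member with the widest spread between animals and the smallest fold difference between sides. In TPM the range between animals was 4.06-fold for ENSMFAG00000044692 and 4.02-fold for ENSMFAG00000041228. For ENSMFAG00000042043 the range was 1.58-fold in CPM and 2.28-fold in TPM, and for ENSMFAG00000000818 it was 1.95-fold and 1.66-fold.

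Which animals differed was asked for all 10 pairs of animals, with p adjusted over all genes and pairs; this test was added after the levels had been seen. Of the 60 member tests 31 were called (51.7%), against 40.1% of the tests over all genes. In the 6 pairs that do not include animal 3, 17 of 36 member tests were called (47.2%), against 19.7% over all genes. The shared residual spread bears on these shares, so nothing is read from the excess. ENSMFAG00000041228 accounted for 9 of the 31. Only animals 1 and 2 were not called different for it, and animal 5 was 4.11-fold below animal 1 (edgeR adjusted p = 2.39e-10). ENSMFAG00000000818 was called in 6 pairs, each between animal 3 or 5 and one of animals 1, 2 and 4. Animal 3 was 1.97-fold above animal 1 in the fit (edgeR adjusted p = 3.85e-05), while in TPM they had 52.7 and 46.3. ENSMFAG00000044692 was called in 5 pairs, 4 of them with animal 5, which was 2.42-fold above animal 3 (edgeR adjusted p = 9.53e-05); in TPM the range between these animals was 4.06-fold. ENSMFAG00000042043 was called in 5 pairs, 4 of them with animal 4, its lowest by TMM-scaled CPM. By TPM and by CPM without the TMM factor animal 3 was lower (17.2 TPM, against 21.6 in animal 4). ENSMFAG00000042109 was called in 4 and ENSMFAG00000002014 in 2.

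**Figure D3:**
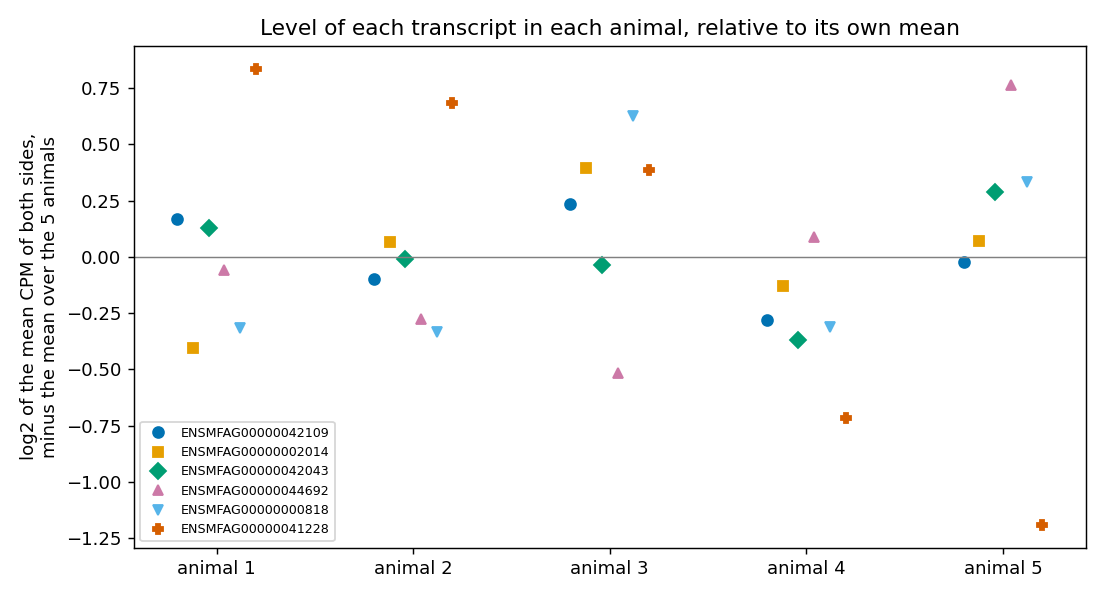
Level of each transcript in each animal (x axis) as log2 of the mean CPM of both sides, relative to the mean over the 5 animals (y axis, log2). ENSMFAG00000041228 goes from the top in animal 1 to the bottom in animal 5, where ENSMFAG00000044692 is at its highest, 8.18 CPM.

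The order of the animals depended on the scale where animal 3 was involved. By TMM-scaled CPM animal 3 was highest for ENSMFAG00000042109 (16.1), ENSMFAG00000002014 (4.85) and ENSMFAG00000000818 (12.4). By TPM the highest for these were animals 1 (17.4), 2 (4.45) and 5 (76.9), and CPM without the TMM factor put the same 3 animals first. ENSMFAG00000042043 and ENSMFAG00000044692 were highest in animal 5 on all 3 scales. ENSMFAG00000041228 was lowest in animal 5 on all 3, and highest in animal 1 by both CPM scales and in animal 2 by TPM (32.2, against 30.7 in animal 1).

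Between the 6 transcripts, levels can be compared per length, in TPM. On that scale ENSMFAG00000000818 was the most abundant, with a mean of 55.1 TPM over the 10 libraries, followed by ENSMFAG00000042043 at 28.8, ENSMFAG00000041228 at 19.2, ENSMFAG00000042109 at 15.6, ENSMFAG00000002014 at 3.55 and ENSMFAG00000044692 at 2.38. The ranges over libraries of the middle 3 overlapped widely, and in contralateral means, 39.8 ± 10.1 TPM for ENSMFAG00000000818 stood against 1.44 ± 0.80 TPM for ENSMFAG00000044692 (SD, n = 5). By CPM ENSMFAG00000000818 lay at percentile 34.8 of tested genes and by TPM at percentile 85.9, so "low to moderate" describes its counts and not its level per length. Its place by TPM rests on a very short estimated length, 0.0898 times the median of well-counted genes, which varied by 8.54% among libraries. How reliable TPM is at such a length was not tested. The other 5 lay between percentiles 20.2 and 74.3 by TPM.

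The ratio of a transcript's count to its TPM, scaled to the library, gives the mean effective length that the authors' estimate implies, relative to other genes; it was not used in the choice. ENSMFAG00000000818 was the shortest, at 0.0898 times the median of 10841 well-counted genes, and ENSMFAG00000044692 the longest, at 1.34 times, 14.9-fold longer. ENSMFAG00000041228 came next at 1.23, then ENSMFAG00000002014 at 0.636, ENSMFAG00000042109 at 0.534 and ENSMFAG00000042043 at 0.457. Where a gene has several transcripts, this length moves with the mix of transcripts that the estimate assigns. Other influences of a library on it were not tested, so a variable length is not read as a change in that mix.

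Between the sides the implied length did not differ detectably for any of the 6, by two-sided exact sign-flip permutation tests over 5 animals. The mean log2 differences, ipsilateral minus contralateral, were 0.03 ± 0.05 for ENSMFAG00000042043, 0.02 ± 0.11 for ENSMFAG00000042109 and between -0.01 and 0.00 for the other 4 (SD, n = 5). The exact p ran from 0.375 to 0.9375, all 0.9375 after adjustment over the 6, and 5 animals cannot give less than 0.0625. Within single animals the 2 scales differed for the transcripts of variable length: for ENSMFAG00000042109 the TPM fold ran from 1.36 in animal 4 to 1.78 in animal 2, where the CPM fold ran from 1.51 to 1.65.

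Among libraries the 6 fell into those with a nearly fixed and those with a variable implied length. The SD over libraries lay at percentile 9.95 of the 10841 well-counted genes for ENSMFAG00000041228 and 30.6 for ENSMFAG00000044692. For the others it lay between percentiles 73.2 and 89.3. The length varied by 0.204% from the shortest to the longest library in ENSMFAG00000041228 and by 0.673% in ENSMFAG00000044692. The TPM of ENSMFAG00000044692 was as low as 0.73 and given to 2 decimals, so rounding alone can give a variation of that size. It varied by 17.4% in ENSMFAG00000042043, 15.2% in ENSMFAG00000042109, 8.98% in ENSMFAG00000002014 and 8.54% in ENSMFAG00000000818. In ENSMFAG00000042043 animals 1 and 5 had the shorter length on both sides (log2 values of -0.12 and -0.10 in animal 1) and the other 3 animals the longer. In ENSMFAG00000000818 animal 3 had the longest on both sides, at 0.07 (contralateral) and 0.08 (ipsilateral) against at most 0.00 elsewhere. In ENSMFAG00000042109 animals 1 and 2 lay above the mean on both sides, and the other 3 differed between their sides, with -0.12 and 0.00 in animal 5 and 0.02 and -0.10 in animal 3.

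**Figure D4:**
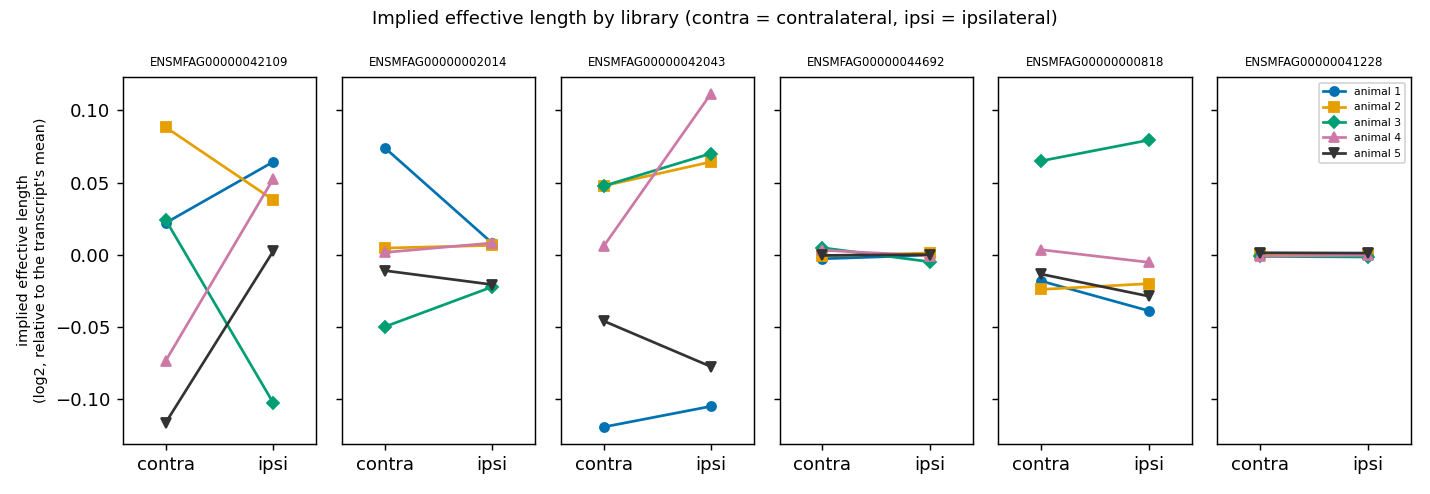
Implied effective length of each transcript in each library (y axis, log2, relative to that transcript's mean over 10 libraries) on the contralateral and ipsilateral side, with a line for each animal. ENSMFAG00000044692 and ENSMFAG00000041228 are flat, and ENSMFAG00000042043 separates animals 1 and 5 from the other 3.

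Correlations among the 6 are given as a description, without a test, since the libraries come in pairs from 5 animals. Over the 10 libraries Pearson's r of log2 CPM had a median of 0.71 and a mean of 0.55 over the 15 pairs of transcripts, against a mean of 0.00 over all pairs of tested genes. On log2(TPM + 1) the means were 0.58 and 0.27. The shared side difference for which they were chosen enters these values. Among the first 5 transcripts r was 0.59 to 0.85. With ENSMFAG00000041228 it was -0.23 to 0.50. Over the 5 animal means, where the side shift common to all animals cancels, the median was 0.09 and the range -0.87 to 0.72. Each animal's own departure from that shift still enters these means in part. The lowest was between ENSMFAG00000044692, highest in animals 5 and 4, and ENSMFAG00000041228, lowest in them, although animals 1, 2 and 3 stood in the same order in both. The highest was between ENSMFAG00000002014 and ENSMFAG00000000818. With 5 points such values are loose, and those 2 transcripts are both highest in animal 3 only on the TMM-scaled CPM scale.

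For each member the tested gene with the most similar profile over the 10 libraries was looked up by Pearson's r of log2 CPM, and none of these was another of the 6. The best r lay between 0.945 and 0.976. The highest was that of ENSMFAG00000041228 with ENSMFAG00000033263, which had a log2 side difference of 0.16 ± 0.10 (SE) and was not called between the sides. The lowest was that of ENSMFAG00000042043 with ENSMFAG00000036375, which was called higher on the ipsilateral side, at 0.48 ± 0.11 (SE). Between 6 and 42 of the tested genes reached an r of at least 0.9 with a given member, most for ENSMFAG00000000818.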

How the data were processed

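Both sides of the dorsal spinal cord of 5 operated macaques were measured by RNA-seq, with libraries from a stranded mRNA kit per the labels' protocols. Per the file headers, the deposited table gives an expected count and a TPM value per gene and library. The authors used fastp 0.22.0, STAR 2.7.9a and RSEM 1.3.1, per the submitters' processing notes. Their settings, the genome build and the gene annotation are not given in the sources read for this work. All 20 value columns matched 1 sample each.

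Expected counts were rounded and tested in edgeR 4.0.16 (R 4.3.3) over all 16143 genes kept by filterByExpr (8005 removed), with TMM scaling, a robust quasi-likelihood fit, animal as a block, and Benjamini-Hochberg adjustment at 0.05. A standard error is the log2 difference divided by the square root of F. A prior count of 2 was added for log2 CPM. The same fit gave the animal F test and the pairwise animal contrasts. Implied length used genes with at least 100 counts and 1 TPM in every library. Counting intervals are 95% exact and cover counting error only.

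Libraries were paired by the labels' animal number. Deviations from the side means correlated at 0.676 to 0.942 between both libraries of an animal, and at most 0.395 between animals.

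The fits were tested on simulated data with known changes. Dispersions were set either to the gene-by-gene estimates from these libraries, which are noisy, or to the fitted trend. With the gene-by-gene estimates, the animal test made more false calls than its threshold allows. The false calls with the fitted trend are not given here. Alternatives were other scalings and filters, DESeq2 1.42.0, limma 3.58.1 (voom, and trend on log2(TPM + 1) and log2(TPM + 0.1)), no block, and each animal left out. The 6 members and all lists and rules were chosen with earlier results of these data known. The rule for named genes was the 6 members plus the most similar gene for the members with the highest and the lowest best r. Cell type markers were not tested, since no identifier was paired with a symbol.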

Additional observations from a re-analysis of the deposited data

Results flagged for a closer look

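Dixon's test was applied to 28 sets of 5 values, and in 4 of them the highest or lowest library stood off from the others. By chance about 1 in 20 sets would, and the sets are not independent. For ENSMFAG00000044692 the contralateral library of animal 5 held 5.51 CPM, with the next at 2.98. Without animal 5 its log2 side difference stays within the spread between animals, while its difference between animals is no longer called (edgeR adjusted p = 0.111). The TMM factors of animal 3 were 0.8297 on the contralateral side (next 1.028) and 0.7979 on the ipsilateral side (next 1.033). These factors move the level of every member in animal 3, and the highest animal changes with them for 3 of the 6. The ipsilateral library of animal 2 held 26539772 expected counts, with the next at 30598994. None of the members' side differences, and none of their differences in implied length, held such a value.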

How the results depend on the processing

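Of 84 recomputed side differences (6 members, 14 alternatives), 81 moved by less than the spread between animals, 3 moved by more and 0 reversed. That the direction holds could hardly fail, since the members were chosen for it. The 3 were ENSMFAG00000042109 (0.58), ENSMFAG00000002014 (0.92) and ENSMFAG00000044692 (0.80) in limma on log2(TPM + 1). In limma on log2(TPM + 0.1) the same 3 had 0.62, 1.18 and 1.16, each within the spread between animals. Between the sides 444 genes were called, against 0 with no replicate block (edgeR; 193 at an unadjusted p under 0.05; no other tool was run without it), 43 on log2(TPM + 1), 76 on log2(TPM + 0.1) and 135 to 1255 with 1 animal left out. Between the animals 13030 genes were called, and 5249 to 13062 with 1 animal left out, lowest without animal 3. The share of animal-pair tests called was 40.1%, and 14.8% to 48.3% with 1 animal left out. With 1 animal left out, the log2 difference in implied length ran from -0.00398 to 0.0591 for ENSMFAG00000042109, -0.0168 to 0.00658 for ENSMFAG00000002014, -0.00273 to 0.000315 for ENSMFAG00000044692 and -0.000133 to 0.000121 for ENSMFAG00000041228, all changing sign around values near 0. The median correlation among members was 0.71, and 0.626 to 0.784 with 1 animal left out. Depth limits ENSMFAG00000002014 and ENSMFAG00000044692 most, at 40 and 57 counts in their lowest libraries. The animal-pair tests, the comparison of scales for the order of animals, upper-quartile scaling and no filter for the animal test, and most correlations with an animal left out were chosen after seeing the data. The cause of these moves was not tested.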
